A study of Mus musculus with 14 samples.

Results

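The cells described here are E14.5 hindbrain cells of the *Atoh1* lineage in which transcripts of *Rspo1* and *Msx1* were both counted and transcripts of the neuronal gene *Mapt* were rare. To be a member, a cell needed 1000 or more genes, under 10% mitochondrial UMIs, at least 1 UMI of *Rspo1*, at least 1 of *Msx1*, at most 4 UMIs of *Mapt* and at most 1 UMI of *Barhl1*. A UMI (unique molecular identifier) marks 1 captured transcript. By this rule 1323 of 49696 E14.5 cells (2.66%) were members, 329 in control and 994 in *Atoh1S193A/-* libraries. They are called *Rspo1* *Msx1* cells below. In the whole series 122658 cells in 14 libraries passed the limits on genes and mitochondrial UMIs. The same rule took 40 of 55054 cells at E18.5 and 2 of 17908 cells at P5.

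The study asked how a partial loss of *Atoh1* function alters hindbrain neurons that arise from the rhombic lip. Control embryos were *Atoh1Cre/+*; Rosa lsl-TdTomato/+ and mutant embryos were *Atoh1Cre/S193A*; Rosa lsl-tdTomato/+ (*Atoh1S193A/-*), all on C57BL/6J. In both genotypes Cre replaced the coding region of 1 *Atoh1* copy, so controls also had only 1 working copy, and the other copy of mutants coded for an alanine in place of a serine. Each of the 6 libraries at E14.5 held TdTomato-positive, DAPI-negative hindbrain cells of 1 embryo, and mutants and controls with the same number were taken as littermates. The sort was meant to take cells in which *Atoh1*-driven Cre had acted, or that came from such a cell, and was read out only through the reporter.

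The roof plate is a strip of dorsal midline cells that secretes BMP and WNT proteins, and the rhombic lip is the germinal zone that borders it in the hindbrain. R-spondins are secreted proteins that raise the response of a cell to WNT ligands. MSX and ID proteins are nuclear proteins induced by BMP signaling, and ID proteins hold back basic helix-loop-helix factors such as ATOH1. Part of the roof plate becomes the choroid plexus epithelium, which makes transthyretin (*Ttr*).

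The 4 genes of the rule set the cells apart, so their levels are a description only. Levels are given as CPM, the UMIs of a gene per 1000000 UMIs of the summed cells of a library. *Rspo1* (chr4:124986430-125009099, plus strand, GRCm38) stood at 244.6, 300.2 and 233.8 CPM in the members of the 3 control libraries and at 235.7, 329.8 and 206.0 CPM in those of the 3 mutant libraries. *Msx1* (chr5:37820485-37824583, minus strand), which codes for a homeobox repressor, stood at 431.8, 472.7 and 302.6 CPM in control and at 458.0, 488.6 and 434.0 CPM in mutant members. The genotypes overlapped for both genes. Some members lay at the limits. A single *Rspo1* UMI admitted 428 members and a single *Msx1* UMI admitted 149, while 796 members held at least 2 UMIs of each. *Mapt*, which codes for the microtubule-binding protein tau, was at 0 UMIs in 942 members (71.2%) and at the limit of 4 UMIs in 9, and 6 more cells would have entered at 5 UMIs. *Barhl1*, a homeobox gene of postmitotic rhombic lip neurons, was at 1 UMI in 116 members, and 16 more cells would have entered at 2 UMIs.

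The other given markers were *Id1*, *Id3* and *Rfx4*. *Id1* was counted in 88.0 to 96.1% of the members of a library, *Id3* in 91.4 to 98.7% and *Rfx4*, which codes for a factor of neural progenitors, in 83.1 to 93.8%. In neurons, taken here as the 17922 cells with at least 20 *Mapt* UMIs, these shares were 5.54 to 13.9%, 5.75 to 16.03% and 3.41 to 8.27%. Members and neurons were set apart by *Mapt*, so contrasts with neurons, here and below, are a description only. Mean levels over the 6 libraries were 895 CPM for *Id1*, 1262 CPM for *Id3* and 257 CPM for *Rfx4*. These levels were close to those of *Mapt*-low, *Barhl1*-low cells that had *Msx1* but no *Rspo1* (3579 cells), where the means were 936, 1288 and 190 CPM. The given markers were thus present in most members, but *Id1* and *Id3* did not separate members from the *Rspo1*-negative, *Msx1*-positive cells.

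Apart from the rule's genes, and among genes at 20 CPM or more that were higher in members of 6 of 6 libraries, *Wnt3a*, *Rspo3* and *Slc17a8* had the highest ratios, with 1 CPM added to each level, over *Mapt*-low, *Barhl1*-low cells with neither *Rspo1* nor *Msx1* (4181 cells, called comparison cells). *Wnt3a*, a canonical WNT ligand, stood at 51.5, 44.1 and 40.2 CPM in control and 48.1, 41.3 and 32.4 CPM in mutant members, against a mean of 1.03 CPM in comparison cells. *Rspo3* stood at 206.8, 145.7 and 230 CPM in control and 218, 122 and 159 CPM in mutant members, against 7.97 CPM. Every library was higher for both genes in members than in comparison cells, and the genotypes overlapped. *Rspo2* had a mean of 40.9 CPM against 3.12 CPM, *Wnt9a* 82.5 CPM against 5.92 CPM and *Wnt1* 135 CPM against 15.0 CPM. Some other WNT ligand genes were not higher in every library, with *Wnt4* at 8.58 CPM against 17.7 CPM, *Wnt7b* at 2.37 CPM against 11.4 CPM, *Wnt7a* at 2.03 CPM against 3.64 CPM and *Wnt5a* at 44.9 CPM against 42.9 CPM. *Dkk3*, which codes for a secreted protein of the Dickkopf family, had 125 CPM against 9.96 CPM. *Wls*, whose product carries WNT proteins to the cell surface, reached 619 CPM against 177 CPM. The WNT target *Axin2* had 180 CPM against 63.8 CPM, and the receptor gene *Fzd10* had 151 CPM against 59.1 CPM. In *Rspo1*-negative, *Msx1*-positive cells *Wls*, *Axin2* and *Fzd10* lay in between, at 494, 130 and 87.5 CPM. *Slc17a8*, which codes for a vesicular glutamate transporter, stood at 44.6 CPM against 1.46 CPM in comparison cells.

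Other genes among the 20 with the highest ratio were *Ttr*, *Kcne2*, *Folr1*, *Clic6*, *Slc4a5*, *Trpm3*, *Calml4* and *Pla2g16*, and the first 4 of these are epithelial genes known from the choroid plexus. Members with many *Ttr* UMIs, described below, carried most of *Kcne2* (459 against 1.23 CPM in the other members), *Clic6* (284 against 5.45 CPM), *Slc4a5* (154 against 0.70 CPM) and *Trpm3* (379 against 6.95 CPM). *Igfbp6*, *Clrn1*, *Arc*, *Sertm1*, *Pcp4l1* and *Gm48898* completed the 20. *Ttr* ranged from 5313 to 38598 CPM among the 6 libraries and *Kcne2* from 19.97 to 242 CPM. Against the *Rspo1*-negative, *Msx1*-positive cells, *Ttr* was lower in the members of 6 of 6 libraries (mean 41944 CPM in those cells), as were *Kcne2* (75.1 against 290 CPM) and *Folr1* (69.7 against 160 CPM). *Rspo2*, *Cntnap2*, *Slc17a8*, *Wnt3a*, *Rspo3* and *Lrp1b* were those most above the *Rspo1*-negative, *Msx1*-positive cells, with log2 ratios of 2.26, 2.14, 2.13, 1.90, 1.82 and 1.76, each in 6 of 6 libraries. Cells were grouped by *Rspo1* and *Msx1* themselves, so none of these ratios carries a test.

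Roof plate factors were present as well. *Lmx1a*, a LIM homeobox gene needed for the roof plate, stood at 63.2 CPM against 6.11 CPM in comparison cells, *Msx2* at 151 against 39.3 CPM, and *Otx2*, a homeobox gene also used in the choroid plexus, at 454 against 163 CPM. Among BMP ligands, *Bmp6* reached 39.0 CPM, *Bmp7* 14.6 CPM, *Bmp4* 7.93 CPM and *Gdf7* 3.96 CPM. *Bmp7* was carried mainly by the members with many *Ttr* UMIs described below (75.5 CPM against 4.99 CPM in the others). The BMP antagonist gene *Nog* stood at 49.3 CPM against 10.0 CPM in comparison cells and 38.1 CPM in *Rspo1*-negative, *Msx1*-positive cells. Rhombic lip transcription factors were seen at *Zic1* 595 CPM, *Pax6* 240 CPM, *Olig3* 50.5 CPM and *Atoh1* 48.7 CPM, against 394, 178, 34.1 and 58.2 CPM in comparison cells. *Pax6*, *Olig3* and *Atoh1* were lower in members than in *Rspo1*-negative, *Msx1*-positive cells (372, 107 and 101 CPM) in 6 of 6 libraries. The 19 rhombic lip and proneural genes summed to 1801 to 2444 CPM in members and 1905 to 2945 CPM in comparison cells. These levels thus did not set members apart. Some proneural genes of other dorsal domains were near 0, with *Neurog1* at 0.214 CPM, *Neurog2* at 0.588 CPM and no UMI of *Ptf1a* in any library. *Sox2*, a progenitor factor, stood at 253 CPM and the D-type cyclin gene *Ccnd2* at 994 CPM. *Tubb3* and *Stmn2*, which code for neuronal cytoskeletal proteins, stood at 123 and 85.5 CPM against 3333 and 4131 CPM in neurons. *Mki67*, a gene of cycling cells, was counted in 29.9 to 48.0% of control and 42.6 to 46.3% of mutant members, against 4.66 to 8.67% of neurons.

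Markers of other cell types were low. All 7 microglia genes stood below 5 CPM, with *C1qa*, *C1qc*, *Cx3cr1* and *Tyrobp* at 0, and of 6 endothelial genes 5 stood below 5 CPM, while *Kdr* ranged from 45.4 to 115 CPM. The summed mesenchyme and pericyte genes had 7.79 to 24.7 CPM, against 50.2 to 1212 CPM in comparison cells. Red blood cell genes summed to 4.47 to 36.8 CPM in 5 libraries and to 589 CPM in mutant 1. The reporter element WPRE was counted in 87.0 to 93.3% of control and 97.0 to 98.8% of mutant members.

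**Figure D1:**
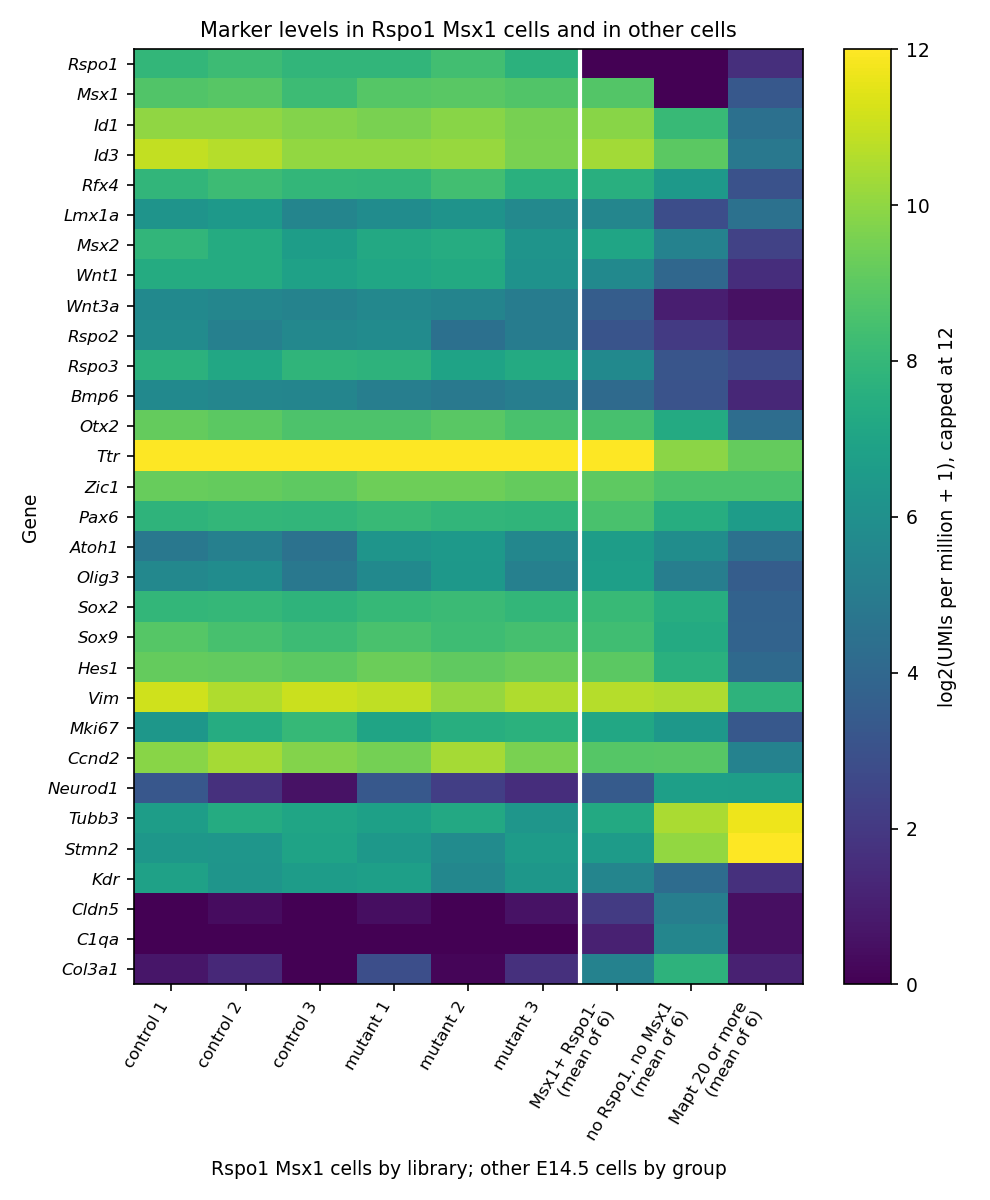
Levels as log2(CPM + 1), capped at 12 and shown by color, of marker genes (rows) in the *Rspo1* *Msx1* cells of each E14.5 library (columns left of the white line) and in other cell groups (columns right of it). *Id1* averages 895 CPM in the members and 20.4 CPM in neurons, while *Tubb3* averages 123 CPM in members and 3333 CPM in neurons. Members and neurons were set apart by *Mapt*, so this contrast is a description only.

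Total UMIs per E14.5 library ran from 121762137 to 193872318. The median member held 18495 to 22867 UMIs, above the 8266 to 13936.5 UMIs of comparison cells and close to the 18048 to 23040 UMIs of *Rspo1*-negative, *Msx1*-positive cells. No barcode was shared by members of 2 libraries, and Scrublet, a doublet caller that marked the 7.5% of highest-scoring cells in each library, marked 27 members. The headers of controls 1 and 2 named version 3.1.0 of Cell Ranger and those of the remaining 4 libraries version 5.0.1, so the version is partly confounded with genotype. Free RNA can place UMIs in cells that do not express a gene. In neurons at least 1 UMI of *Rspo1* was found in 1.32 to 2.49%, at least 1 of *Msx1* in 1.68 to 6.98%, and both in 0.201 to 0.419% of control and 0.641 to 1.08% of mutant neurons.

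Members made up a larger share of the sorted cells in mutant libraries. They were 77 of 6407, 150 of 8858 and 102 of 9713 cells in controls 1 to 3 (1.20%, 1.69% and 1.05%) and 259 of 7950, 406 of 8303 and 329 of 8465 cells in mutants 1 to 3 (3.26%, 4.89% and 3.89%). Every mutant library was above every control library, and the mutant was higher in 3 of 3 littermate pairs. Control libraries averaged 1.32% ± 0.336 and mutant libraries 4.01% ± 0.823 (SD, n = 3 each), a difference of 2.70 percentage points and a ratio of 3.05. The exact two-sided permutation test gave p = 0.1, the smallest value that 3 against 3 libraries allow, and the exact sign-flip test over the 3 pairs gave p = 0.25, again the smallest value possible, so neither exact test could reach p = 0.05 with these libraries. Control 3, the only control from Cell Ranger 5.0.1, had the lowest share, and the mutant mean was 3.82 times its value.

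The share of *Mapt*-low, *Barhl1*-low cells as a whole differed between genotypes in the same direction. Such cells made up 11.0 to 14.7% of control and 23.1 to 28.5% of mutant libraries (exact permutation p = 0.1). Of those cells, members were 8.16%, 15.5% and 8.60% in controls and 13.3%, 21.2% and 13.6% in mutants. These shares overlapped between genotypes (exact permutation p = 0.3), although the mutant was higher in 3 of 3 pairs. *Rspo1*-negative, *Msx1*-positive cells were more frequent in mutants too. They were 248 of 6407, 257 of 8858 and 298 of 9713 cells in controls and 821 of 7950, 786 of 8303 and 1169 of 8465 cells in mutants. The higher share was thus not particular to members. With cells thinned to 8000 UMIs, which left out 3401 shallower cells (2066 control and 1335 mutant), members were 1.04% ± 0.208 (SD, n = 3) of control and 2.82% ± 0.800 (SD, n = 3) of mutant cells. A share of sorted cells depends on every other cell type in the sort, and a gain of these cells cannot be told apart from a loss of others.

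**Figure D2:**
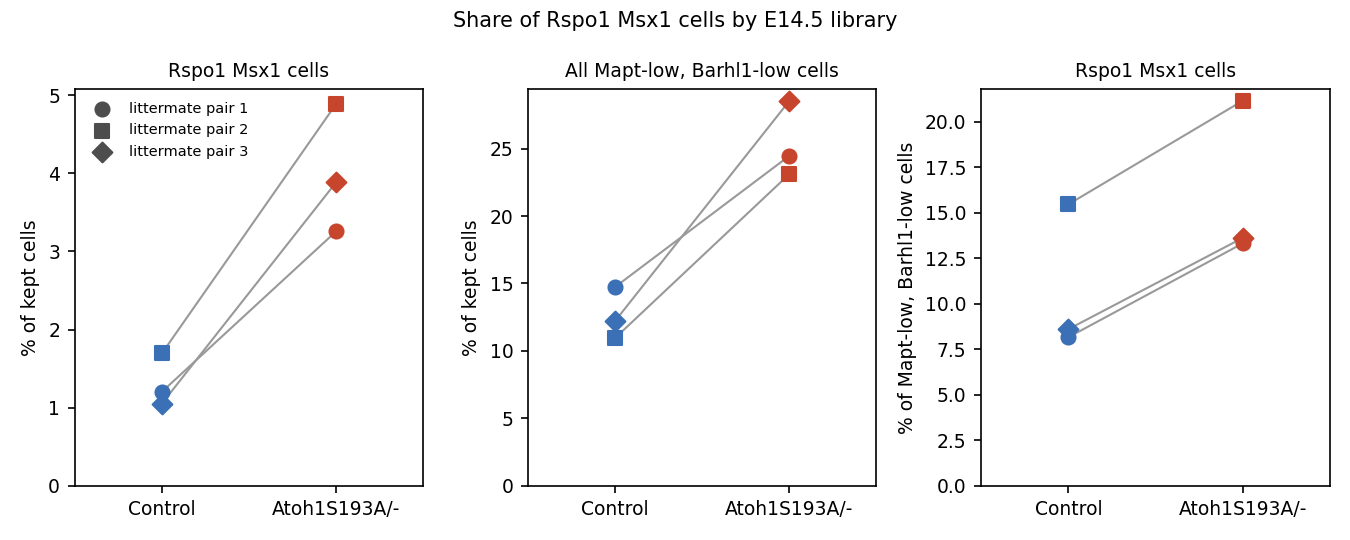
*Rspo1* *Msx1* cells as a percentage of the cells of each E14.5 library, for control and *Atoh1S193A/-* embryos, where each symbol is 1 library and lines join littermates. As a share of all kept cells the control libraries sit between 1.05 and 1.69% and the mutant libraries between 3.26 and 4.89%, while as a share of *Mapt*-low, *Barhl1*-low cells the genotypes overlap.

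A minority of members carried choroid plexus transcripts. At least 100 *Ttr* UMIs were counted in 170 members (12.8%), called *Ttr*-high, while 20 members held 16 to 99 UMIs. The median of all members under 100 UMIs was 0 to 5 *Ttr* UMIs per library. *Ttr*-high members numbered 18, 20 and 13 in controls and 16, 39 and 64 in mutants, which is 23.4%, 13.3% and 12.7% of control members and 6.18%, 9.61% and 19.5% of mutant members. The genotypes overlapped (exact permutation p = 0.4). This limit was set after the distribution of *Ttr* had been seen, so the values that follow are a description.

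Of the 18 roof plate and choroid plexus genes, 13 had a higher and 5 a lower mean in *Ttr*-high members than in other members. *Ttr* itself, which made the split, is 1 of the 13. *Kcne2*, a potassium channel subunit gene, averaged 459 CPM in them against 1.23 CPM in other members, *Kcnj13*, a potassium channel gene, 183 against 1.01 CPM, and the serotonin receptor gene *Htr2c* 283 against 0.547 CPM. *Foxj1*, a gene of ciliated cells, averaged 194 against 14.2 CPM and *Bmp4* 50.8 against 1.14 CPM. Of the 17 radial glia and progenitor genes above 5 CPM in either class, 15 had a lower mean in *Ttr*-high members and 2 a higher one, namely *Sox9* (475 against 340 CPM) and *Prdm16* (99.97 against 10.9 CPM). Of 11 such rhombic lip and proneural genes, 10 had a lower mean. Other lists were lower as often, with 23 of 26 S phase, 29 of 30 G2 and mitosis, 16 of 18 Notch and 15 of 17 neuron differentiation genes. Of 15 immediate early and dissociation genes 10 were higher. *Ttr* alone averaged 90250 CPM in *Ttr*-high members, and the share over all genes was not counted, so these counts are not particular to progenitor genes. *Wnt1* averaged 31.2 against 150 CPM, *Pax3*, a dorsal neural tube factor, 33.7 against 254 CPM, *Pax6* 13.2 against 276 CPM, and *Atoh1* 4.69 against 55.1 CPM. The Notch target *Hes5* averaged 39.2 against 339 CPM and the radial glial gene *Fabp7* 131 against 1180 CPM. Of the given markers, *Id1* averaged 539 against 948 CPM, *Id3* 580 against 1370 CPM, *Rfx4* 64.6 against 287 CPM and *Rspo1* 101 against 284 CPM. *Msx1* stood at 484 against 426 CPM. Members of this kind thus carried choroid plexus genes along with *Msx1*, *Id1* and *Id3*, and had lower means of most rhombic lip genes. A single *Rspo1* UMI was what admitted 115 of the 170 (40.0 to 87.5% per library, against 22.3 to 34.2% of other members). *Rspo1* was counted in 9.76 to 29.0% of all *Ttr*-high, *Mapt*-low cells and in 1.32 to 2.49% of neurons. Of *Msx1*-positive, *Mapt*-low cells that were not *Ttr*-high, it was counted in 22.9 to 38.5% in controls and 26.5 to 36.8% in mutants. Without *Ttr*-high members the mean shares of sorted cells were 1.10% in control and 3.54% in mutant libraries.

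**Figure D3:**
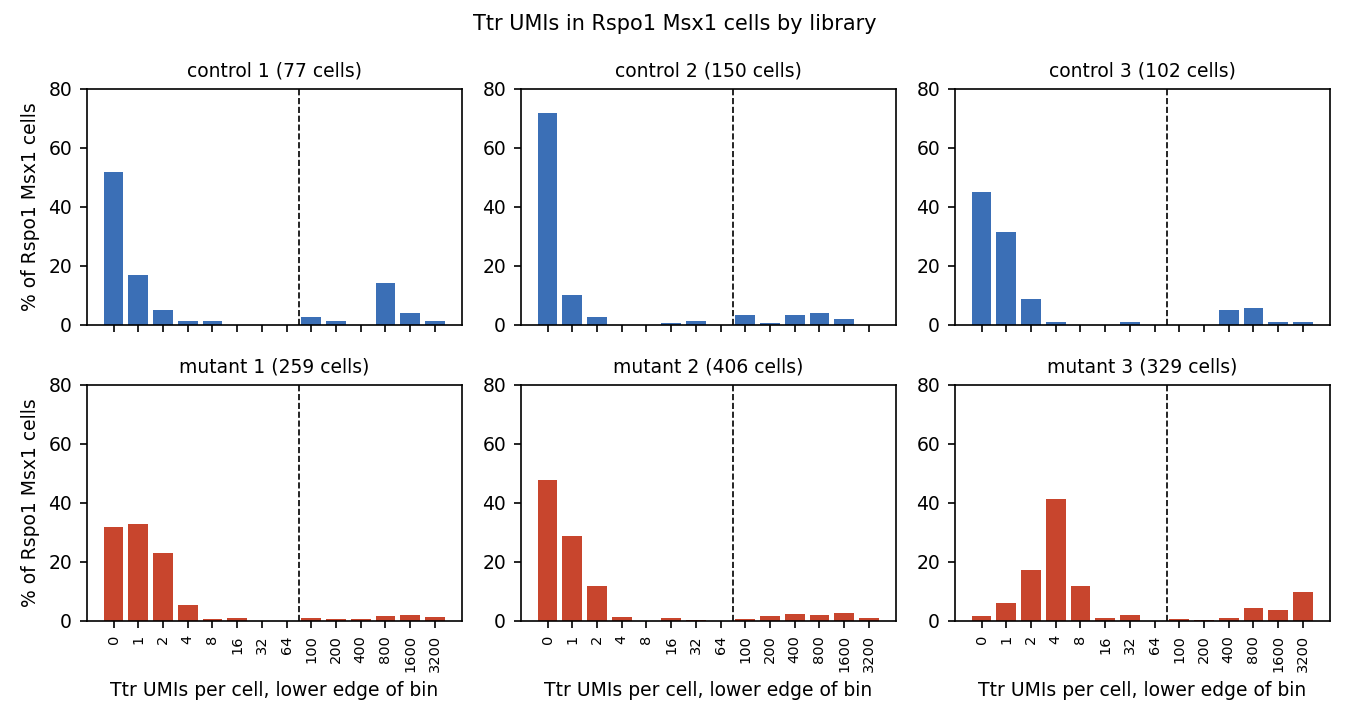
Distribution of *Ttr* UMIs per *Rspo1* *Msx1* cell in each E14.5 library, with the percentage of members on the vertical axis, the lower edge of each bin on the horizontal axis and a dashed line at the limit of 100 UMIs. In total 170 of 1323 members lie at or above the limit and 20 hold 16 to 99 UMIs.

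Members differed among themselves in Hox genes, whose paralog groups 2 to 5 mark the caudal hindbrain and which the rule did not use. Over 11 of these genes (*Hoxa2* to *Hoxa5*, *Hoxb2* to *Hoxb5*, *Hoxc4*, *Hoxc5* and *Hoxd3*), 377 members held at least 3 UMIs (Hox-positive), 550 held none (Hox-negative) and 396 held 1 or 2. Hox-positive members were 26.0%, 22% and 19.6% of the members of controls and 33.6%, 23.4% and 37.1% of those of mutants, with overlapping genotypes (exact permutation p = 0.2). They numbered 20, 33 and 20 in controls and 87, 95 and 122 in mutants. Hox-negative members numbered 36, 68 and 45 in controls and 92, 208 and 101 in mutants. The median Hox-positive member held 16173.5 to 20584 UMIs and the median Hox-negative member 17616 to 23563 UMIs. Comparing both classes within libraries by the edgeR quasi-likelihood test, 1314 of 10642 genes (12.3%) passed an FDR of 0.05 and a log2 difference of 0.25 in either direction and were called. Of these, 794 (7.46%) were higher and 520 (4.89%) lower in Hox-positive members, and the median log2 difference over all genes was -0.01. Fewer genes were called at a mitochondrial limit of 5% (641, 6%) and with cells thinned to 8000 UMIs (874, 10.5%).

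The called genes with the largest rise in Hox-positive members included *Nppc* and *Ccnd1*. *Nppc*, which codes for C-type natriuretic peptide, stood at 362, 84.6 and 354 CPM in the Hox-positive and 1.40, 5.64 and 19.0 CPM in the Hox-negative members of controls, and at 253, 42.4 and 344 CPM against 19.8, 2.86 and 2.36 CPM in mutants. The classes did not overlap, with means of 240 ± 143 and 8.51 ± 8.56 CPM (SD, n = 6) and a log2 difference of 4.67 ± 0.297 (SE, edgeR FDR = 5.88e-08). *Ccnd1*, a D-type cyclin gene, stood at 83.8, 305 and 187 CPM against 37.9, 24.7 and 10.0 CPM in controls and at 442, 557 and 521 CPM against 16.9, 33.7 and 38.2 CPM in mutants. Again no Hox-positive value fell within the Hox-negative range (log2 difference 3.80 ± 0.232 SE, edgeR FDR = 4.08e-08). *Ccnd2*, its paralog, ran the other way, at 525 against 1199 CPM (-1.31 ± 0.135 SE). *Pla2g7*, which codes for a secreted phospholipase, averaged 396 ± 247 CPM against 19.98 ± 11.3 CPM (SD, n = 6; log2 difference 4.11). *Vgll3*, a transcription cofactor gene, *Thbs2*, which codes for the matrix protein thrombospondin 2, and *Pdzrn4* rose by log2 differences of 4.22, 3.81 and 3.79. The others were *1700049E15Rik* (6.15) and the transcripts *Hoxaas3* (5.97), *Hoxb3os* (4.25) and *Hotairm1* (4.00). These 3 transcripts lie in the Hox clusters and can share reads with Hox genes, so their counts are uncertain.

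Apart from the *Hox* genes that made the split, 6 genes of the rostrocaudal position list were tested, of which *En2* and *En1* (-2.20) were lower in Hox-positive members and 4 *Irx* genes were not called. *En2*, a homeobox gene of the midbrain and rostral hindbrain, stood at 4.93, 25.5 and 2.93 CPM in Hox-positive and 46.3, 61.3 and 29.0 CPM in Hox-negative members of controls, and at 2.19, 8.68 and 4.74 CPM against 39.2, 107 and 32.3 CPM in mutants. No Hox-positive library reached the lowest Hox-negative one (log2 difference -2.92 ± 0.271 SE, edgeR FDR = 3.38e-06). *Cnpy1*, a gene of the midbrain-hindbrain border, differed by -2.68 on the log2 scale. *Rspo2* averaged 13.3 ± 11.1 CPM against 55.3 ± 19.8 CPM (SD, n = 6), a log2 difference of -2.47 ± 0.239 (SE, edgeR FDR = 5.14e-06). *Slc6a15*, an amino acid transporter gene, *Vat1l* and *Sgk1*, a kinase gene, differed by -2.08, -2.32 and -2.46. *Ttr* differed by -3.01 (edgeR FDR = 0.0355), *Kcne2* by -2.89, and the transporter genes *Slco1c1* and *Slc4a10* by -3.77 and -2.28. Of the 170 *Ttr*-high members 88 were Hox-negative and 18 Hox-positive, against 550 and 377 of all 1323 members. Without them, a choice made after seeing the data, *Kcne2*, *Slco1c1* and *Slc4a10* no longer passed the filter on low counts, and *Rspo2* and *En2* differed by -2.73 and -3.07. The *Ttr* left in those members was at the level of neurons, with a median of 0 to 5 UMIs per cell in both, so its difference there is not read.

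**Figure D4:**
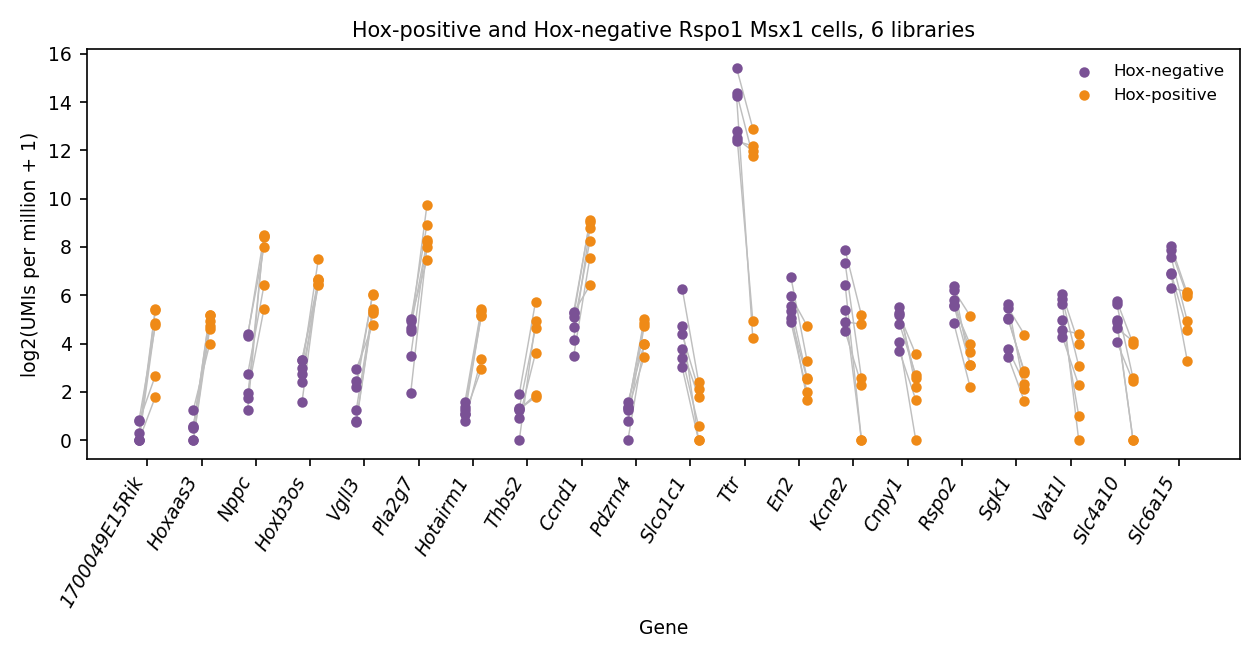
Levels as log2(CPM + 1) of named genes in the Hox-negative and Hox-positive *Rspo1* *Msx1* cells of the 6 E14.5 libraries, where each point is 1 library and lines join both classes of a library. *Nppc* and *Ccnd1* are higher and *En2* and *Rspo2* lower in the Hox-positive cells of 6 of 6 libraries.

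Gene lists were read against the 7.46% of genes that were higher and the 4.89% that were lower. All 3 given markers outside the rule were higher in Hox-positive members, with *Id1* at 1388 against 700 CPM (log2 difference 0.99), *Rfx4* at 329 against 218 CPM (0.55) and *Id3* at 1529 against 1173 CPM (0.43). Of the 16 roof plate and choroid plexus genes tested none was higher and 10 were lower. They included *Wnt1* (79.5 against 162 CPM, -1.03), *Otx2* (-1.14), *Msx2* (-0.56) and *Lmx1b*, a LIM homeobox gene (-2.46). *Folr1* and *Enpp2* were in this count as well, but differed by -0.05 and 0.57 without *Ttr*-high members and were not called there. *Wnt3a* and *Rspo3* were not called, with log2 differences of 0.36 and -0.25. Of 10 rhombic lip and proneural genes 6 were higher and none lower, among them *Meis2* (1.87), *Olig3* (1.31) and *Pax6* (0.60), while *Atoh1* was not called (-0.26). *Msx1* itself averaged 663 CPM against 330 CPM, and *Rspo1* 286 against 244 CPM, both given as descriptions because they belong to the rule.

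Pathway genes were divided. In the WNT list 7 of 33 genes were higher and 7 lower. Higher were the secreted WNT-binding genes *Sfrp1* (2.54) and *Wif1* (1.58), the ligand genes *Wnt4* (2.45) and *Wnt5a* (0.78), *Dkk3* (1.59) and the receptor genes *Fzd3* and *Fzd9*. Lower were *Rspo2*, *Wnt1*, *Wls* (-0.49), *Fzd10*, *Sfrp2* and the transcription factor genes *Sp5* (-1.77) and *Lef1*. *Axin2* was not called (0.23). In the BMP list 4 of 23 genes were higher, all of them ID genes (*Id4* 1.92, *Id1* 0.99, *Id2* 0.78 and *Id3* 0.43), and *Msx2* alone was lower. Radial glia genes were higher in 11 of 17 cases and lower in 3, with *Ptprz1*, a receptor phosphatase gene, at 193 against 31.5 CPM (2.62), the glutamate transporter gene *Slc1a3* at 449 against 125 CPM (1.79), and *Sox2* at 383 against 187 CPM (1.01). *Pax3* was among those that were lower (-1.17). In the Notch list 7 of 17 genes were higher and none lower. Of 26 S phase genes 12 were lower and none higher, and of 30 G2 and mitosis genes 3 were lower. Immediate early and dissociation genes moved with the split too, with 8 of 13 higher and none lower (*Fos* 577 against 278 CPM, *Egr1* 236 against 110 CPM), and their part in the other differences was not tested.

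Few genes passed a test between genotypes within the members, and their number depended on the setting. The edgeR quasi-likelihood test on the 6 library sums called 0 of 10503 genes (0%), while 305 (2.9%) had an unadjusted p under 0.05, 204 of them higher and 101 lower in mutants. When littermates were blocked, edgeR called 12 genes (0.114%), 8 higher (0.0762%) and 4 lower (0.0381%), and DESeq2 without the block called 15 (0.143%). Mutant and control libraries did not overlap for 446 genes that were higher (4.25%) and 306 that were lower (2.91%). With the block, the count was 18, 6 and 128 without pairs 1, 2 and 3, and 72 without the *Ttr*-high members. Pair 3 was the only pair whose control and mutant came from the same Cell Ranger version. Without pair 3, version and genotype cannot be told apart. In the libraries of version 5.0.1 alone, which include 1 control, 11 of the 12 genes called with the block were fitted. All 11 kept their direction. The 12 genes called with the block are described next, and for each the edgeR FDR without the block was 0.0826 or more.

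*Lmo2*, which codes for a LIM-only transcription cofactor, stood at 342, 271 and 289 CPM in control members and at 138, 104 and 76.3 CPM in mutant members. No mutant library reached a control library, and the log2 change was -1.52 without and -1.55 ± 0.122 (SE) with the block (edgeR FDR = 0.0826 and 0.00619). *Gadd45g*, a growth arrest gene, stood at 58.1, 57.1 and 34.4 CPM in control and at 236, 143 and 117 CPM in mutant members. Every mutant library was higher, with a log2 change of 1.66 ± 0.143 (SE) with the block (edgeR FDR = 0.00625). *Lmo2* and *Gadd45g* were called with the block in Hox-positive members alone (-2.29 and 2.14) and in Hox-negative members alone (-1.40 and 1.43), and also after leaving out any 1 littermate pair. Without pair 2 these were the only ones of the 12 still called, so the calls that follow were all lost there.

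*Atoh1* transcripts stood at 27.4, 36.3 and 21.8 CPM in control and at 75.8, 84.8 and 46.4 CPM in mutant members. The groups did not overlap, and *Atoh1* rose by 1.24 ± 0.127 (SE) on the log2 scale with the block (edgeR FDR = 0.0176, against 0.335 without it). At least 1 *Atoh1* UMI was found in 20.8%, 21.3% and 16.7% of control and in 44.0%, 41.1% and 34.7% of mutant members. In neurons these shares were 19.4%, 19.0% and 16.5% in controls and 23.3%, 25.5% and 24.6% in mutants, so they too were higher in mutants without overlap. The range of control members lay within the 16.5 to 25.5% of all neurons. The increase was 2.39 in Hox-positive and 1.03 in Hox-negative members, both called with the block, and the difference between these increases was not tested. The count is of 3′ tags and does not read the altered codon or the Cre copy apart, so it is no check of the genotype labels.

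The cell death gene *Hrk*, which codes for a BCL2-binding activator of apoptosis, stood at 0, 0.631 and 1.94 CPM in control and at 13.96, 15.5 and 12.4 CPM in mutant members. All mutant libraries were higher, and *Hrk* was counted in 0 to 3.92% of control and 8.13 to 12.8% of mutant members, against 15.6 to 21.4% of neurons (edgeR FDR = 0.0331 with the block). It was higher in Hox-positive than in Hox-negative members (17.99 against 2.69 CPM). *Hrk* was not called with the block in Hox-positive members alone (edgeR FDR = 0.144). It was not fitted in Hox-negative members or without pair 3, where it did not pass the filter on low counts. *Hrk* passed that filter, 10% of the cells of either genotype, through mutant members only, so its call is not independent of the filter. *Tnc*, which codes for the matrix protein tenascin C, stood at 41.7, 23.7 and 26.6 CPM in control and 11.5, 9.74 and 9.97 CPM in mutant members, a log2 change of -1.52 ± 0.177 with the block. *Atp1b1*, a sodium pump subunit gene, fell from 205, 219 and 177 CPM to 118, 116 and 126 CPM (-0.75 ± 0.104). Neither *Tnc* nor *Atp1b1* overlapped between genotypes.

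The remaining calls with the block were *Tenm2*, *Ccser2*, *Pcp4*, *Plxna2*, *Myh8* and *AC160336.1*. *Tenm2*, a teneurin adhesion gene, rose from 19.6, 17.7 and 13.1 CPM to 42.8, 41.1 and 30.3 CPM (1.17 ± 0.147), and *Ccser2* rose from 22.2, 27.7 and 25.2 CPM to 45.9, 56.2 and 45.4 CPM (0.95 ± 0.130), both without overlap. *Pcp4*, which codes for a calmodulin-binding peptide, *Plxna2*, a semaphorin receptor gene, and *Myh8*, a myosin heavy chain gene, rose by 1.05, 0.96 and 1.28 within pairs, but their libraries overlapped between genotypes. Of these, *Tenm2*, *Pcp4* and *Myh8* were also called higher in Hox-positive members, a class that made up 31.4% ± 7.11 of mutant and 22.5% ± 3.22 of control members (SD, n = 3). With the block, *Tenm2* rose by 1.24 in Hox-positive and 1.07 in Hox-negative members, *Pcp4* by 0.84 and 0.71 and *Myh8* by 1.48 and 1.01. Among these rises only that of *Myh8* in Hox-positive members was called (edgeR FDR = 0.0334). The part of the Hox-positive share in these changes was not tested. The last gene, *AC160336.1*, stood at 316 and 549 CPM in controls 1 and 2, at 2.42 CPM in control 3 and at 1.59, 5.5 and 2.59 CPM in mutants. Its high libraries were those whose headers name Cell Ranger 3.1.0. Control 3, the only control from the later version, lay within the mutant range, at 2.42 CPM against 1.59 to 5.5 CPM. Within controls the level thus followed the version, and libraries of the later version showed no lower level in mutants. The gene is still counted among those called lower with the block, and the part of the version in this call was not tested.

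**Figure D5:**
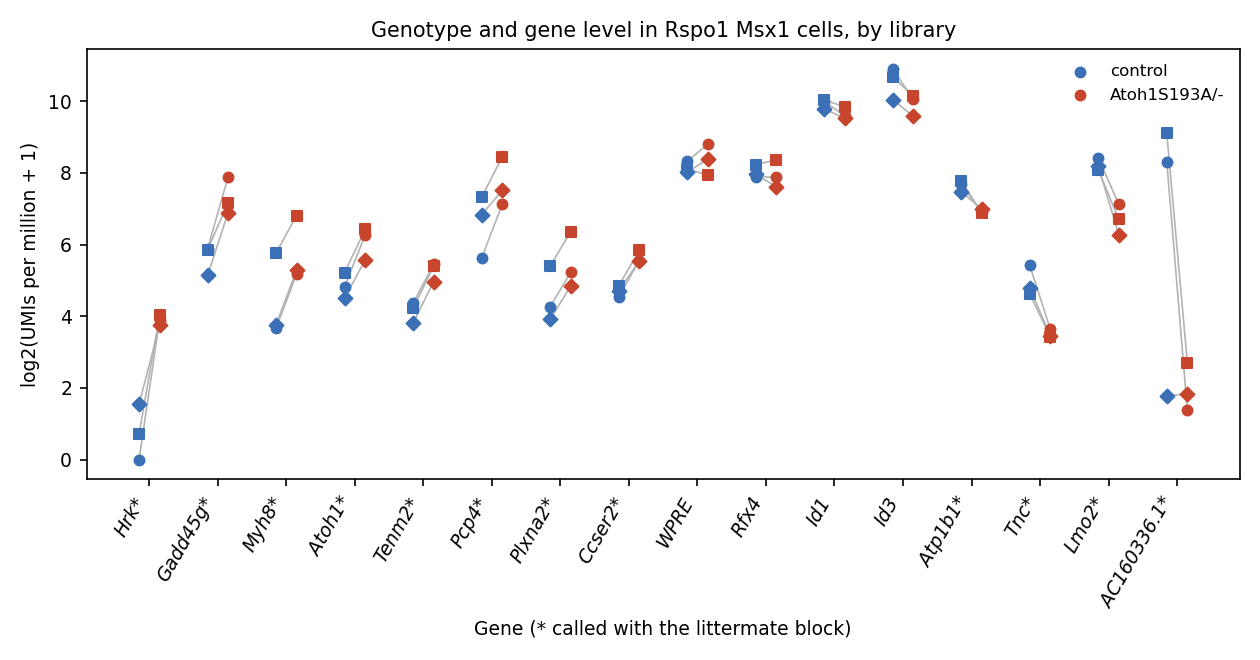
Levels as log2(CPM + 1) of named genes in the *Rspo1* *Msx1* cells of each control and *Atoh1S193A/-* library, where each symbol is 1 library, lines join littermates and an asterisk marks genes called with the littermate block. *Lmo2* is lower and *Gadd45g*, *Atoh1* and *Hrk* are higher in all 3 mutant libraries than in any control library.

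The given markers did not pass the test. *Id3* stood at 1916, 1637 and 1057 CPM in control and 1058, 1135 and 765 CPM in mutant members, a log2 change of -0.65 without the block (edgeR FDR = 1.00) and -0.63 with it (edgeR FDR = 0.0592). It was lower in 3 of 3 pairs. Without *Ttr*-high members, edgeR with the block called 72 of 10456 genes (0.689%), and *Id3* was then among them (-0.70, edgeR FDR = 0.00423). *Id1* was at 1021, 1045 and 882 CPM against 769, 918 and 736 CPM (-0.30), and *Rfx4* differed by -0.07. The reporter WPRE was at 320, 275 and 258 CPM in control and 444, 244 and 333 CPM in mutant members and was not called. In edgeR, WNT and R-spondin genes gave 0 calls of 32 with the block (1 higher and 1 lower at an unadjusted p under 0.05 without the block) and BMP genes 0 of 23 (4, all lower, at an unadjusted p under 0.05), with median log2 changes of 0.00 and -0.04 against 0.01 over all genes. Over all genes 0.114% were called with the block and 2.9% had an unadjusted p under 0.05 without it. DESeq2 called 1 gene of the WNT and BMP lists, the secreted WNT inhibitor gene *Wif1* (1.37). *Wnt1* changed by -0.35, *Rspo3* by -0.23, *Bmp6* by -0.52 and *Nog* by -0.68, none of them called, and for *Bmp6* and *Nog* the genotypes did not overlap. Without *Ttr*-high members, edgeR with the block called *Nog* (-0.75) and *Id3* lower and *Wif1* (1.31) higher. *Ccnd1* stood at 52.8, 93.3 and 45.5 CPM in control and 154, 156 and 202 CPM in mutant members and was called by DESeq2 (adjusted p = 9.13e-06) but not by edgeR without (FDR = 0.306) or with the block (FDR = 0.0859). It changed by 1.45 in Hox-positive and 0.34 in Hox-negative members, and the difference between those changes was not tested.

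With the block, of 10 rhombic lip and proneural genes *Atoh1* and *Pcp4* were called higher, of 11 D-type cyclin and cell cycle inhibitor genes *Gadd45g* was, and of 14 cell death genes *Hrk* was. *Hrk* was among the tested genes through mutant members only. At an unadjusted p under 0.05 without the block, 4 of these 11 genes were higher, and 4 of these 14 were higher and 1 lower. Over all genes 0.114% were called with the block and 2.9% had such a p without it. Without *Ttr*-high members, edgeR with the block called 3 of the 11 higher, *Gadd45g* (1.46), *Ccnd1* (1.45) and *Btg2* (0.63), and 2 of the 14, *Hrk* (3.87) and *Bcl2l11* (0.98), which codes for a BCL2-binding activator of apoptosis. Of 7 Hox genes that were tested from the list that split the members, none was called with the block, 4 had an unadjusted p under 0.05 without it, all higher in mutants, and the median log2 change was 0.93 against 0.01 over all genes. The members' Hox sums were 116.1, 91.1 and 71.6 CPM in controls and 197.5, 103.4 and 202.5 CPM in mutants, with overlapping genotypes. *Hoxa2* was called higher with the block without *Ttr*-high members (1.31). No S phase, G2 and mitosis, Notch, radial glia or neuron differentiation gene was called by edgeR, and 1 of 26, 0 of 30, 4 of 17, 2 of 17 and 1 of 17 of them had an unadjusted p under 0.05 without the block, against 2.9% of all genes. Without *Ttr*-high members, edgeR with the block called the Notch pathway genes *Hes6* (0.65) and *Notch1* (0.63) higher and *Hey1* (-0.76) lower, the filament gene *Vim* of the radial glia list lower (-0.45) and *Insm1* of the neuron list higher (1.34), while no S phase or G2 and mitosis gene was called. Of 13 immediate early and dissociation genes none was called, but 7 had an unadjusted p under 0.05, all higher in mutants, with a median log2 change of 0.48. Over all genes 305 of 10503 (2.9%) had such a p. *Junb* (0.90), *Btg2* (0.63) and *Egr1* (0.53) were called higher with the block without *Ttr*-high members. The whole list summed to 1262 to 1726 CPM in control and 1852 to 2196 CPM in mutant members, without overlap, whereas in comparison cells the list summed to 1366 to 2124 CPM and 1460 to 2281 CPM. Its part in the other differences was not tested.

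Whether genotype changes were particular to members was tested as a difference between the change in members and that in comparison cells of the same libraries, and edgeR called 4 of 10761 genes (0.0372%). The number depended on the setting, with 73 calls with the littermate block, 171 against all other *Mapt*-low cells and 212 without mutant 2. *Spon1*, which codes for the matrix protein F-spondin, stood at 16.3, 26.8 and 24.7 CPM in control and 63.8, 42.2 and 70.2 CPM in mutant members, against 55.5, 86.1 and 64.3 CPM and 53.4, 22.7 and 50.6 CPM in comparison cells. The mutant members were all higher than the control members, and the difference of the log2 changes was 2.11 ± 0.198 (SE, edgeR FDR = 0.013). *Htra1*, a secreted protease gene, *Gdf10*, a BMP-family ligand gene, and *Pax3* had differences of -1.37, -1.76 and -0.92. In each of these 3 the mutant mean was above the control mean in comparison cells (53.0 against 23.6 CPM, 35.1 against 11.6 CPM and 194 against 127 CPM) and not in members (181 against 210 CPM, 54.0 against 58.3 CPM and 200 against 246 CPM). The comparison cells themselves differed between genotypes, with a median of 8266 to 10742 UMIs per cell in controls and 13173 to 13936.5 in mutants. Their neuron differentiation genes summed to 6656 to 9261 CPM in controls and to 3850, 9670 and 3683 CPM in mutants. The part of these differences in the 4 calls was not tested. Against the *Rspo1*-negative, *Msx1*-positive cells, added after seeing the data, 0 genes were called by edgeR and 431 had an unadjusted p under 0.05. Without control 1, none of the 4 differences was called, although *Spon1* still differed by 2.06. *Htra1* alone of the 4 was called without control 2, *Spon1* alone without control 3, and *Spon1* and *Gdf10* without mutant 3. With at least 2 UMIs of each rule gene *Pax3* was not called, and against all other *Mapt*-low cells *Gdf10* was not. *Gdf10* was not called without mutant 1, nor *Spon1* (2.12) at a mitochondrial limit of 5%, nor *Gdf10* and *Pax3* without the *Barhl1* criterion. Of the genes called with the block, *Lmo2* (-1.25), *Gadd45g* (1.22) and *Atoh1* (-0.10) had differences between members and comparison cells that were not called (edgeR FDR = 0.27, 0.242 and 0.901). These values are from the fit without the littermate block, so they are not matched to the fit that called the genes.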

How the data were processed

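The deposited values are raw UMI counts per gene and cell, which the authors made with Cell Ranger from 10x Genomics 3′ v3.1 libraries aligned to mm10 with the WPRE sequence added. Per the file headers Cell Ranger 3.1.0 made controls 1 and 2 and 5.0.1 the other 12 libraries, while the submitters' processing notes name 5.0.1. GENCODE M21 (GRCm38) gave gene positions (30934 of 31054 gene IDs matched).

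Cells were kept at 1000 genes and under 10% mitochondrial UMIs. Doublets were scored with Scrublet in scanpy 1.11.5 and left in. The members, gene lists and tests were chosen with earlier results of these data known, so the members' own markers are no independent evidence.

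UMIs were summed per library and class of cells. Sums were compared with edgeR 4.0.16 in R 4.3.3 by its quasi-likelihood F test after TMM scaling. Genes detected in 10% or more of the cells of either group were tested, and calls needed an FDR below 0.05 and a log2 change beyond 0.25 either way, with DESeq2 1.42.0 as an alternative. Library was a block in the Hox and cell-group comparisons. Shares were compared by exact permutation of libraries (scipy 1.17.1). The edgeR fits were tested on simulated counts. Ratios of levels used a pseudocount of 1 CPM.

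The description names the 20 genes with the highest ratio over comparison cells, of those at 20 CPM or more and higher in 6 of 6 libraries. For genotype the named genes are up to 10 called in each direction, or those called with the block, with *Atoh1*, WPRE, *Id1*, *Id3* and *Rfx4* always. For the Hox and cell-group tests they are up to 10 called genes in each direction by size, of those at 20 CPM or more that went 1 way in 6 of 6 libraries. List genes that passed a test may also be named, and *Ccnd1*, *Wif1*, *Wnt1*, *Rspo3*, *Bmp6* and *Nog* were added for the genotype comparison after their values had been seen.

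The labels state that each mutant was collected with a control littermate. Same-numbered libraries deviated together, with correlations of 0.225, 0.610 and 0.356 over 6448 genes, so numbers were taken as pairs. Control 1 and mutant 3 gave 0.184, close to the value of pair 1, and the remaining combinations were negative. Each library is 1 embryo. E18.5 and P5 libraries entered only the count of cells taken by the rule.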

Additional observations from a re-analysis of the deposited data

Results flagged for a closer look

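The genotype change differed between *Rspo1* *Msx1* cells and comparison cells in a direct test for 4 genes. The log2 differences of the changes were 2.11 for *Spon1*, -1.37 for *Htra1*, -1.76 for *Gdf10* and -0.92 for *Pax3*, each with an edgeR FDR between 0.013 and 0.0186. Against *Mapt*-low cells with *Msx1* and without *Rspo1* the same differences were 0.72, -0.13, 0.28 and -0.02, and none was called by edgeR.

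At E18.5, which the comparisons above do not use, mutant 1 held 19 cells that met the rule, which is 0.167% of its 11355 cells. The E18.5 controls held 4, 7 and 3 such cells (0.0496%, 0.0740% and 0.0328%) and mutants 2 and 3 held 4 and 3 (0.0475% and 0.0348%). These cells were not analysed further.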

How the results depend on the processing

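The higher share of members in mutants kept its direction under every setting run, at 2.26 to 3.07 percentage points when 1 library was left out, and was 5.29 points with *Mapt*-low, *Barhl1*-low cells as the denominator, where the ratio of mutants to controls fell from 3.05 to 1.49 and the genotypes overlapped (exact permutation p = 0.3). The number of genes called between genotypes was 0 by edgeR without a block, 12 with the replicate block of littermates, 24 without a filter on low counts, 15 by DESeq2, 1 without the *Barhl1* criterion and 2 with 77 cells per library. With a term for sex and no block it was 0. It was 0 to 1 when 1 library was left out, with 1 call without control 3 and 1 without mutant 1. Alternatives chosen after seeing the data gave 3 without *Ttr*-high members, 72 without them and with the block, and, with the block, 9 in Hox-positive and 12 in Hox-negative members. With the block and without 1 littermate pair it was 6 to 128: 18 without pair 1, 6 without pair 2 and 128 without pair 3. Of the 12 genes, 7, 2 and 11 were then still called. Without pair 3 every control came from Cell Ranger 3.1.0 and every mutant from 5.0.1, so those calls cannot be told apart from the version. For the difference between members and comparison cells, 4 genes became 73 with the replicate block, 170 without the filter, 171 against all other *Mapt*-low cells, 10 without *Ttr*-high members, 0 against *Rspo1*-negative, *Msx1*-positive cells and 0 to 212 without 1 library (0, 1 and 2 without controls 1 to 3 and 5, 212 and 2 without mutants 1 to 3). For the Hox split, 1314 genes became 641 at a mitochondrial limit of 5% and 874 after thinning. The sign turned for 3 genes. *Rfx4* ranged from -0.284 to 0.056 when 1 library was left out and was 0.016 with at least 2 UMIs of each rule gene and 0.041 with the block and without pair 3. WPRE moved to -0.13 in Hox-positive members and -0.17 there with the block, and *Gdf10*, called at -1.76 against comparison cells, to 0.28 against *Rspo1*-negative, *Msx1*-positive cells. The causes were not tested. Of the other values for single genes, 651 kept direction and call, 82 became called and 27 lost the call.

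There were 3 libraries per genotype and as few as 77 members in a library, and a smallest detectable change was not measured. The Hox classes were smaller, with as few as 20 Hox-positive and 36 Hox-negative members in a library. The p-values without a block measure the spread between embryos. Those with the littermate block measure how much the differences within pairs vary between pairs. Those of the Hox and cell-group fits measure how much the differences within libraries vary between libraries. Intervals for cells within an embryo are not given.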
